A study of Drosophila melanogaster with 2 samples.

Results

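Divergent promoters were taken as the stretches between the transcription start sites of a minus-strand and a plus-strand protein-coding gene that point away from each other and start at most 1000 bp apart, with the starts of any annotated transcript. Of the 6152 peaks in the authors' optimal set, 813 had their summit in such a stretch (13.2%, 95% interval 12.4 to 14.1). Among the 23848 weaker peaks, those of the list called on pooled replicates that are not in the optimal set, 984 did (4.13%, interval 3.88 to 4.39). The stretches cover 1112778 of 133880608 bp on the 6 chromosome arms, 0.831% of the sequence. The optimal summits were therefore 15.9 times as frequent there as their even spread over the sequence would give, and the weaker summits 4.96 times. Summits within 500 bp upstream of their nearest protein-coding start and in no such stretch were also more frequent in the optimal set. They made up 18.1% of it and 10.3% of the weaker peaks. The control was not analysed here, so whether these stretches also give signal without the tagged protein is not known, and "bound" below means only that a summit lies there. Intervals throughout are exact binomial (Clopper-Pearson) and cover counting error only.

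The peaks come from ChIP-seq of E(spl)m8-HLH in *Drosophila melanogaster*, in a transgenic line that stably carries the protein with GFP at its C-terminus and with an antibody against GFP. Whole embryos of both sexes at 4 to 14 h gave 1 group of 2 biological replicates, numbered 2 and 3, and no second condition. Whole embryos mix many cell types, so a peak does not show in which cells the protein was bound, nor whether both genes of a pair are used in the same cell. The signal of a peak is the authors' enrichment value, read here only within a list, and ranks count from the strongest peak of that list. In a replicate, a peak takes the rank and signal of the strongest peak there that overlaps it, whose summit can lie elsewhere.

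E(spl)m8-HLH is a Notch-induced basic helix-loop-helix repressor that works with the corepressor Groucho and, like its relatives, prefers E-boxes of the class B and class C type. Divergent gene pairs share their upstream sequence and are common in the compact fly genome. Many hold broadly expressed genes, and their promoters often carry sites for DREF and the insulator protein BEAF-32, which read the same core, and for M1BP, which reads core promoter motif 1.

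The sequences at the summits show what these regions look like. Both sets were drawn only from summits outside annotated exons and leave out 1 chromosome arm, so they skip some stronger peaks. The first set holds 8 of the strongest summits, and the second holds examples with a full DREF site, a class B E-box, a class C E-box and motif 1. Stronger summits with an E-box exist, such as Ripalpha/RpL7, described with the E-boxes. Each is read from the RefSeq sequence of Release 6 (dm6), plus strand, 5′ to 3′, within 50 bp of the summit and cut at the starts and at the nearest annotated exon. Capitals mark matches on either strand to the DREF site TATCGATA and its core ATCGATA, to the E-boxes of class B (CACGTG) and class C (CACGCG) and a further E-box (CATATG), and to core promoter motif 1 (GGTCACACT), motif 6 (GTATNTTT) and motif 7 (CATCNCTA). The first 4 windows are chrX:2703853-2703939, chr3R:15229486-15229586, chr3L:21304523-21304608 and chr3R:27636124-27636224, and the next 4 are chr2L:13835409-13835509, chr3L:5139444-5139544, chr2L:8376837-8376937 and chr3R:24109137-24109237.
Ugalt/eIF2Bbeta: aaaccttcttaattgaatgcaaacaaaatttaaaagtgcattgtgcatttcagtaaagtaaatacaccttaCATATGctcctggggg
Art3/mRpS10: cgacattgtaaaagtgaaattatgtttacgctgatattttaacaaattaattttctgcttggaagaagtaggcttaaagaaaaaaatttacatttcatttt
CG11309/CG7632: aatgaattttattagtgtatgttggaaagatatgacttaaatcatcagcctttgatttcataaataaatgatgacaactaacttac
CG5611/Mtl: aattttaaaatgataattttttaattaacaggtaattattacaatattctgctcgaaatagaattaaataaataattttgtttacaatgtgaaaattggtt
mRpS23/CenG1A: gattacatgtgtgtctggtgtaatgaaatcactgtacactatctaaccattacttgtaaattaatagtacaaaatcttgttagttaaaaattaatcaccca
Tcs5/CHMP2B: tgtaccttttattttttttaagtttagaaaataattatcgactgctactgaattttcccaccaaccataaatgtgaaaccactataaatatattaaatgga
CG13390/CG17294: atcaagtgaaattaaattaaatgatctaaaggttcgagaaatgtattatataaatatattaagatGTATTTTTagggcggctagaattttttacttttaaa
eIF4EHP/CG18428: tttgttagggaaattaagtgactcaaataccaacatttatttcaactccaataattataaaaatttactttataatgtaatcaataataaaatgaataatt

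Of these 8 windows, the first holds CATATG, the seventh holds GTATNTTT, promoter motif 6, and the other 6 hold none of the marked motifs. Motifs counted below but not marked also occur. Tcs5/CHMP2B holds GTGGGAA, the site of the Notch effector Su(H), on the minus strand. A and T make up most of the letters of the 8 windows. The second set lies at chr3R:11216318-11216418, chr3R:18188825-18188925, chr2L:16300078-16300178 and chr2L:419858-419951. RpS25 and RpLP1 encode ribosomal proteins, MED17 encodes a subunit of the Mediator complex, and heix encodes an enzyme of the UbiA prenyltransferase family.
RpS25/CG4820: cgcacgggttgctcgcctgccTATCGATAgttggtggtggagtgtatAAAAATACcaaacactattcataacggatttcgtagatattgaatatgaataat
CG12321/MED17: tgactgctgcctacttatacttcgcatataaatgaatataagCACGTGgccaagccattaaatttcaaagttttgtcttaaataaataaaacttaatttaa
heix/CG17328: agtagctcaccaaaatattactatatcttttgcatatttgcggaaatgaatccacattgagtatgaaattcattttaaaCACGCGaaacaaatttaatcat
CG13690/RpLP1: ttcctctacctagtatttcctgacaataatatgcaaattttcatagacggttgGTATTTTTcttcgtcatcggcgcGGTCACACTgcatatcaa

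The DREF match of RpS25/CG4820 lies in a peak of signal 823, at rank 514 of replicate 2 and rank 565 of replicate 3. The CACGTG of CG12321/MED17 lies in a peak of signal 516, at ranks 1408 and 1242. These summits were present in both replicates, at lower ranks than those of the first set. A match is a description of the letters, not a site or a cause.

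Occupancy varied with how far apart the starts were. The annotation holds 2667 divergent pairs, and 692 of them had an optimal summit between their closest starts (25.9%, interval 24.3 to 27.7). A further 651 pairs had only a weaker summit, and 1324 had none. Among pairs at most 200 bp apart, 68 of 786 held an optimal summit (8.65%, interval 6.78 to 10.8). At 200 to 400 bp the count was 422 of 942 (44.8%, interval 41.6 to 48.0), where each class of distance starts 1 bp above its lower bound. It was 121 of 475 at 400 to 600 bp (25.5%, interval 21.6 to 29.6) and 81 of 464 at 600 to 1000 bp (17.5%, interval 14.1 to 21.2). Pairs at 200 to 400 bp thus held a summit more often than shorter and longer pairs, with intervals that do not overlap.

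The strongest 6152 peaks of each replicate's own list gave the same order. From the closest to the widest pairs the shares were 12.3%, 48.1%, 27.6% and 21.3% by replicate 2. By replicate 3 they were 7.12%, 41.3%, 23.2% and 15.5%. A longer stretch offers more room for a summit, so the pairs were also scored on an equal target, within 250 bp of their midpoint. The shares were then 25.7%, 46.7%, 25.9% and 8.41%, highest again at 200 to 400 bp. Allowing summits up to 100 bp outside the starts gave 21.1%, 46.5%, 28.6% and 21.3%. The low share of the closest pairs therefore rose with a target that reaches past their starts, and the share at 200 to 400 bp stayed within its interval under both targets.

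**Figure D1:**
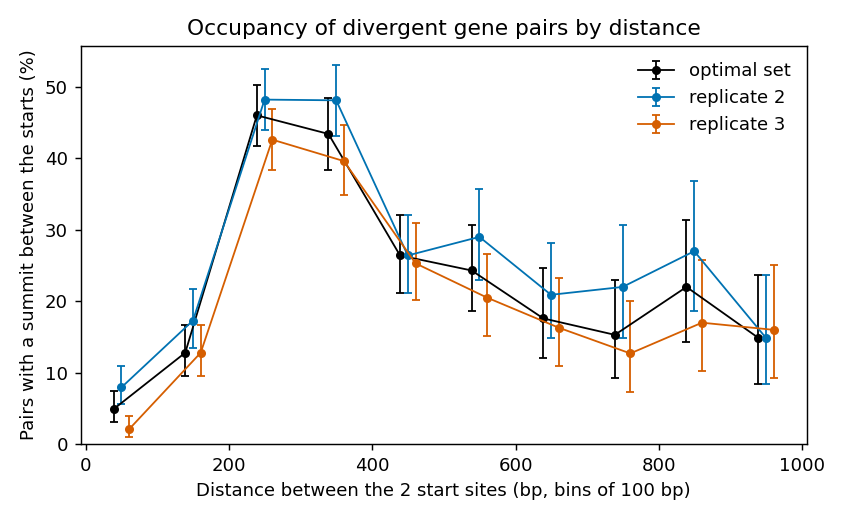
Share of divergent pairs with a summit between their closest starts (vertical axis, %) by the distance between those starts (horizontal axis, bp, bins of 100 bp), for the optimal set and for the strongest 6152 peaks of each replicate; bars are exact 95% intervals. The optimal set gives 4.91% in the shortest bin, 46.0% at 200 to 299 bp, 43.4% at 300 to 399 bp and 14.9% in the widest bin.

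The median distance was 301 bp over all pairs, 312 bp over pairs with an optimal summit (quartiles 245 and 433), 375 bp over those with only a weaker summit and 254 bp over those with none. The shortest stretches that held an optimal summit were 47 bp at CG14817/CG14805 (signal 373), 47 bp at CG11593/Rcd5 (267) and 52 bp at CG32022/CG6511 (1136). The longest were 983 bp at ND-75/CG1632 (243), 983 bp at Sardh/HLH54F (184) and 990 bp at CG12237/Sec61gamma (171).

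Genes in divergent pairs were compared with other genes by the same upstream window. Of 5052 protein-coding genes in such pairs, 1681 had an optimal summit within 500 bp upstream of a start (33.3%, interval 32.0 to 34.6). Of the 8893 genes in no such pair, 931 did (10.5%, interval 9.84 to 11.1). By replicate 2 the counts were 1846 (36.5%) and 987 (11.1%), and by replicate 3 they were 1543 (30.5%) and 893, so the gap between the groups was several times the gap between replicates. A summit in a pair can count for both of its genes, and expression level, which may also differ between the groups of genes, was not measured here. Pair membership and the upstream window both used any annotated start, and the groups were not matched for the number of starts per gene.

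Strength separated the divergent summits from the whole optimal set only slightly. The median signal was 318 at divergent promoters (quartiles 228 and 512) and 310 at the 1114 single promoters (quartiles 217 and 592). Single promoters are summits within 500 bp upstream of their nearest protein-coding start and in no divergent stretch. The median signal was 280 at the other 4225 optimal summits (quartiles 209 and 436). The quartile ranges overlap throughout. Single promoters reached a higher maximum, 5071 against 4057.

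Down the ranking the share of divergent summits fell steadily. In the pooled list it was 15.1% among the strongest 3000 peaks, 9.90% among ranks 6001 to 9000 and 1.23% in the last 3000. Replicate 2 went from 17.0% to 1.30% and replicate 3 from 12.7% to 1.57%. Divergent promoters made up 5 of the 20 strongest peaks, 18 of the strongest 100 and 149 of the strongest 1000 (14.9%, interval 12.7 to 17.3).

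**Figure D2:**
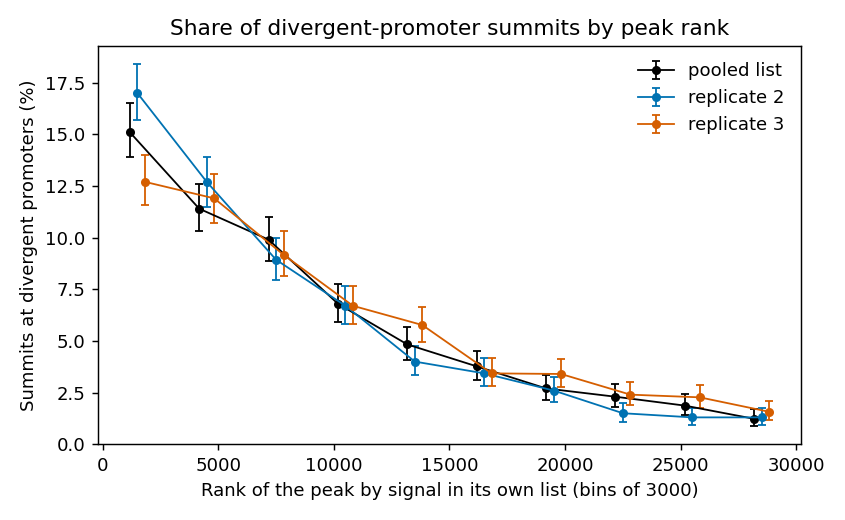
Share of summits at divergent promoters (vertical axis, %) by rank of the peak in its own list (horizontal axis, bins of 3000 peaks), for the pooled list and both replicates; bars are exact 95% intervals. All 3 lists fall from between 12.7% and 17.0% in the first bin to between 1.23% and 1.57% in the last.

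The strongest divergent peak lay between Ugalt, which encodes a UDP-galactose transporter, and eIF2Bbeta, a subunit of the exchange factor for the initiation factor eIF2. Its signal was 4057 in the pooled data, 2356 in replicate 2 and 1716 in replicate 3, and it ranked 5 in each replicate. The summit was 37 bp from the Ugalt start and 682 bp from that of eIF2Bbeta, so this peak sat at the edge of a wide stretch. The next lay between Art3, an arginine methyltransferase gene, and mRpS10, a gene of the small subunit of the mitochondrial ribosome. It had signal 3906, with 2419 and 1507 in replicates 2 and 3 (ranks 4 and 11), and its summit was 128 bp and 129 bp from the starts. It sat in the middle of a 257 bp stretch, which was the commoner arrangement.

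Chro, which encodes the chromodomain protein Chromator, and Ssl1, a subunit of the general factor TFIIH, shared a peak of signal 3125, with 1768 in replicate 2 and 1365 in replicate 3. The peak at mRpL41/CG8079 had signal 3458, with 2212 and 1242. At mRpS23/CenG1A, where CenG1A encodes an Arf GTPase-activating protein, the values were 2740, 1560 and 1180. Mitochondrial ribosomal protein genes stood at 3 of the 20 strongest divergent peaks, against 26 of all 813. CG5611/Mtl had signal 2826 (1701 and 1116). Tcs5/CHMP2B, with the ESCRT-III gene CHMP2B, had 2716 (1667 and 1057). eIF4EHP/CG18428, with the gene of the cap-binding translational repressor partner eIF4EHP, had 2457 (1363 and 1098). Replicate 2 placed these peaks at ranks 14, 15 and 32, and replicate 3 at ranks 32, 52 and 37.

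The rest of the 20 strongest, from 2890 down to 1644, were CG11309/CG7632, Pdrg1/Pal1, CG13390/CG17294, PNPase/Gprk2, Lon/PIG-F, CG3437/CG3552, Reps/l(2)gd1, Mkk4/SLIRP2, CG7841/Z600, brm/Arl1, Acbp1/Piezo and CG32243/CG11357. They include genes of the mitochondrial protease Lon, of the chromatin remodelling ATPase Brahma (brm), of the mechanosensitive channel Piezo and of l(2)gd1, which acts in the endosomal sorting of Notch. Of the 20, 13 lay in stretches of 200 to 400 bp and 17 ranked higher in replicate 2. None of the 20 windows held the DREF core or an E-box of class B or class C, and their GC content ran from 15.8% to 35.6%. The widest gap in favour of replicate 3 was at Acbp1/Piezo, with ranks 190 in replicate 2 and 75 in replicate 3.

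At the other end, the optimal set stopped at a signal of 169. Just inside were dgt3/Prosalpha3, CG15525/CG11504 and smg/CG5087 at 170 and Diap1/Mbs and Tes/qkr54B at 169. Just outside were AnxB11/hang, RpS6/bys, Pex13/fsd and CCT8/CG30349 at 169 and Pdp/Rab39 at 168. The last of these ranked 6188 in the pooled list. The strongest replicate peaks that overlap it ranked 1375 in replicate 2 and 2820 in replicate 3.

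Both replicates held nearly every divergent peak. Of the 813, 806 overlapped a peak of replicate 2 (99.1%, interval 98.2 to 99.7) and 802 a peak of replicate 3 (98.6%, interval 97.6 to 99.3). Both were overlapped in 795 cases and neither in 0 cases. The replicate summit was a median of 15.5 bp away in replicate 2 and 15.0 bp away in replicate 3. A stricter count, among the strongest 6152 peaks of the replicate's own list, took in 776 in replicate 2 (95.4%) and 691 in replicate 3 (85.0%), with 658 in both (80.9%). Of the weaker divergent peaks, 847 of 984 overlapped both replicates (86.1%) and 103 were among the strongest of both (10.5%). The optimal set, named by the authors for reproducibility between replicates, consists of exactly the strongest 6152 pooled peaks, and the pooled peaks were called on the same replicates. The shares therefore describe the set and are no independent check of it.

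The replicates were not alike at these promoters. Among peaks present in both, the divergent ones ranked higher in replicate 2 in 622 of 795 cases (78.2%, interval 75.2 to 81.1). Single promoters did so in 572 of 1087 cases (52.6%, interval 49.6 to 55.6), and other summits in 2110 of 4176 (50.5%, interval 49.0 to 52.1). The median rank of divergent peaks was 2315 in replicate 2 and 3105 in replicate 3. In windows below 30% GC, from 30% to 40% and above, divergent peaks ranked higher in replicate 2 in 79.6%, 76.5% and 76.2% of cases. At single promoters the same shares were 53.2%, 60.9% and 44.0%. The share at divergent promoters was thus similar in each GC class and above that of single promoters in each. Depth per replicate is unknown, and its part in this difference was not tested.

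**Figure D3:**
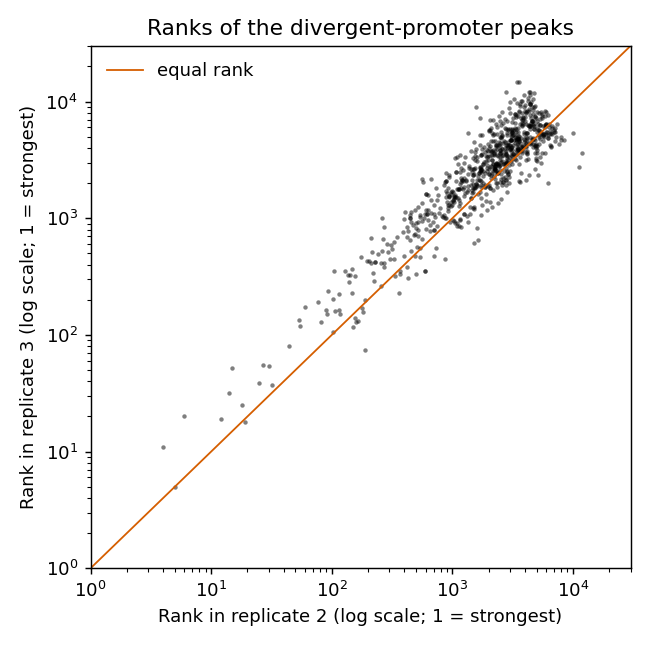
Rank of each divergent-promoter peak in replicate 2 (horizontal axis) and replicate 3 (vertical axis), both on a log scale with 1 as the strongest; each point is 1 of the 795 peaks found in both lists and the line marks equal rank. Of these, 622 lie above the line, where the peak ranked higher in replicate 2.

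The strongest divergent peaks that lacked a replicate were SAK/Cdk12 (signal 508) and Rbbp5/eRF1 (419), with no overlapping peak in replicate 2, and l(3)72Dn/Tmx3 (488), SH3PX1/vsg (472) and CG34447/CG9886 (348), with none in replicate 3. SAK/Cdk12 and SH3PX1/vsg each held a pair of summits. In all, 31 gene pairs held 2 optimal summits. In 28 of them the summits were 199 to 230 bp apart, and the other 3 were l(1)G0320/RpS28b at 717 bp, Ac78C/chb at 638 bp and CNBP/CG9849 at 822 bp. The strongest was Pss/Nubp2, with 1056 and 225 at summits 223 bp apart, and a single peak of each replicate overlapped both.

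Within the stretch, optimal summits lay farther from the nearer start than weaker ones. The median distance to the nearer start was 110 bp (quartiles 78.0 and 144), and to the farther start 214 bp. Weaker summits were at a median of 80.0 bp (quartiles 35.8 and 146), and most often within 50 bp of a start. At single promoters too the optimal summits lay farther out, a median of 191 bp upstream (quartiles 114 and 304). The weaker ones there were at 162 bp (quartiles 67.0 and 285).

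**Figure D4:**
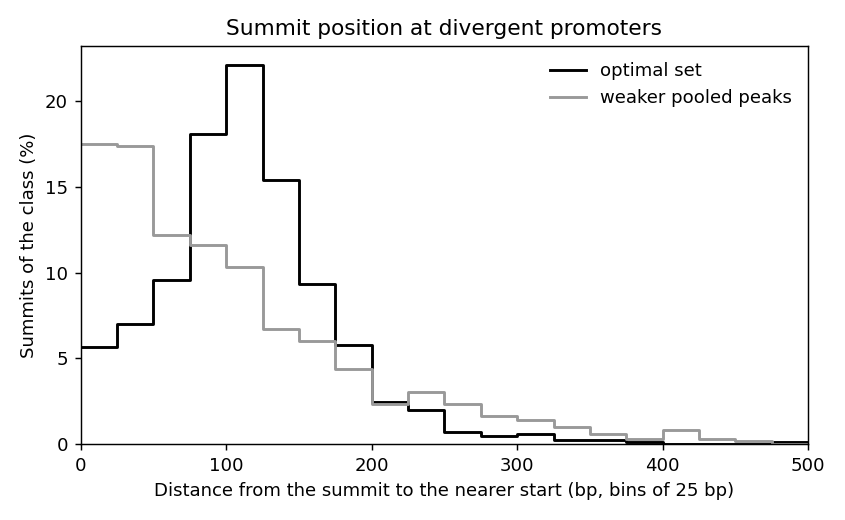
Share of summits (vertical axis, %) by distance to the nearer start (horizontal axis, bp, bins of 25 bp, drawn to 500 bp), for optimal and weaker summits at divergent promoters. The optimal summits peak between 100 and 125 bp, around their median of 110 bp, while the weaker ones are most frequent below 50 bp.

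The distance varied with the stretch, which caps it: the median to the nearer start was 36.0 bp in stretches of at most 200 bp, 108 bp at 200 to 400 bp, 148 bp at 400 to 600 bp and 139 bp at 600 to 1000 bp. For weaker summits it was 29.0 bp, 70.0 bp, 111 bp and 141 bp, so the widest stretches showed no such difference. In stretches of 200 to 400 bp, 85.0% of the optimal summits lay in the central 50% of the stretch (interval 81.4 to 88.1), against 45.7% of the weaker ones. The median distance to the farther start was 177 bp. In stretches of 600 to 1000 bp the central share was 29.1% (interval 20.8 to 38.5) for optimal and 36.8% (interval 31.2 to 42.6) for weaker summits. With the nearer start at the median given above, summits in wide stretches lay beside a start and not in the middle. At 400 to 600 bp the central shares were 62.7% and 46.0%.

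The peak itself, start to end, covered both starts in 305 of 813 cases (37.5%), and in 251 of 472 cases at 200 to 400 bp (53.2%, interval 48.6 to 57.8). The median width of an optimal peak, 424 bp, exceeds such a stretch, so the assignment to a gene of the pair rests on the summit alone. The summit was nearer the minus-strand start in 391 cases, nearer the plus-strand start in 417 and equally far in 5. No side was preferred beyond counting error.

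Optimal divergent summits were rich in A and T. The median GC content of the window within 50 bp of the summit was 28.7% (quartiles 23.8 and 35.6). It was 37.6% at weaker divergent summits (quartiles 30.4 and 44.6), 32.7% at single promoters and 36.6% at the midpoints of pairs with no pooled summit. Windows 1 kb from the optimal divergent summits had a median of 49.5%. From the strongest 25% of the divergent peaks to the weakest 25% the median rose in order, 26.7%, 27.7%, 28.7% and 32.7%.

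Most of the gap to the windows 1 kb away was shared by the whole stretch, and a further dip lay at the summit of optimal peaks. Over whole stretches of 200 to 400 bp, the median GC content was 33.6% with an optimal summit, 33.3% with only a weaker one and 34.4% with none. Within these stretches the summit window of an optimal peak was lower in GC than its own stretch, with a median difference of -6.22 percentage points, and it was lower in 393 of 472 cases (83.3%, interval 79.6 to 86.5). For weaker summits the difference was 0.180 and the window was lower in 154 of 311 cases (49.5%, interval 43.8 to 55.2). At 600 to 1000 bp the optimal summits showed no such dip, with a difference of 0.700 and 53 of 110 lower (48.2%, interval 38.6 to 57.9). At 200 to 400 bp the optimal summits also lay in the middle of the stretch more often, 85.0% against 45.7% of the weaker ones. Windows at like positions were not compared, so the part of position in the dip was not tested. How far base composition affected the signal was not tested either.

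Occupancy was also compared between stretches of like GC content. At 200 to 400 bp, 300 of 608 pairs with 30% to 40% GC held an optimal summit (49.3%, interval 45.3 to 53.4). Below 30% the count was 85 of 196 (43.4%, interval 36.3 to 50.6), and from 40% to 50% it was 35 of 124 (28.2%, interval 20.5 to 37.0). For pairs with 30% to 40% GC at most 200 bp apart it was 24 of 212 (11.3%, interval 7.39 to 16.4), so the order by distance was also seen within this GC class.

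Motif letters at the summit differed between strong and weak divergent peaks. The core ATCGATA, read by DREF and BEAF-32, was in 7.63% of optimal divergent windows (interval 5.90 to 9.67) and in 15.9% of weaker ones. It was in 12.4% of midpoint windows of pairs with no pooled summit, 3.95% of single promoters and 0.984% of windows 1 kb away. The full site TATCGATA, which contains ATCGATA as ATCGATA contains CGATA, was in 4.06% and 8.54% of optimal and weaker windows. Motif 1, GGTCACACT, was in 1.23% and 5.08%. These promoter motifs were thus less frequent at the optimal divergent summits than at the weaker ones, though more frequent there than 1 kb away. Within 100 bp of the summit the contrast shrank: the ratio of optimal to weaker windows went from 0.475 to 0.875 for TATCGATA (10.6%, interval 8.55 to 12.9, against 12.1%, interval 10.1 to 14.3). It went from 0.481 to 0.756 for ATCGATA and from 0.242 to 0.375 for motif 1.

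Over the whole stretch the picture changed. At 200 to 400 bp, ATCGATA was somewhere between the starts in 35.3% of pairs with an optimal summit, 44.9% of those with only a weaker summit and 25.5% of those with none. TATCGATA was in 22.3%, 22.0% and 10.8%. Pairs with a summit of either kind therefore carried the full site more often than pairs with none. How far the summits lay from the site in these pairs was not measured. Motif 1 was in 4.50%, 8.88% and 4.25% of the same pairs. Whole stretches were added to the comparison after the windows had been seen.

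Letters composed of A and T showed the reverse. TATAAA was in 28.5% of optimal and 18.0% of weaker divergent windows, TAATTA, the core of many homeodomain sites, in 15.1% and 8.43%, and AAAAAA in 28.7% and 22.1%. Single promoters held these in 23.4%, 8.89% and 24.1%. Over whole stretches of 200 to 400 bp with an optimal summit, only a weaker one or none, TATAAA was in 54.0%, 46.3% and 54.6%, and AAAAAA in 59.2%, 60.3% and 52.0%. TAATTA was in 35.1%, 33.2% and 25.8%. Over the whole stretch the intervals of pairs with optimal and with weaker summits thus overlapped for all 3 motifs. GC content moved with the shares at the summit, and its part in them was not tested. Against the strongest 25% of the weaker divergent peaks, a comparison also added later, the ratio for AAAAAA turned from 1.30 to 0.940.

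The E-boxes that Hairy/E(spl) proteins prefer were rare at the summits. The class B site CACGTG was in 8 of 813 optimal windows (0.984%, interval 0.426 to 1.93) and in 1.12% of weaker ones, 2.06% of single promoters and 1.54% of windows 1 kb away. The class C site CACGCG was in 9 (1.11%, interval 0.507 to 2.09), against 2.74%, 2.15% and 2.95%. Midpoint windows of pairs with no pooled summit held CACGTG in 0.680% (interval 0.311 to 1.29) and CACGCG in 1.89%. Either was in 16 of 813 (1.97%, interval 1.13 to 3.18) and in 37 of 984 weaker windows (3.76%, interval 2.66 to 5.15). The proneural E-box CAGCTG was in 3.81% of optimal and 7.22% of weaker windows, and GTGGGAA, the site of the Notch effector Su(H), in 1.48% and 0.813%. With counts this small, the ratio of CACGTG between optimal and weaker windows, 0.880, turned to 1.69 within 25 bp of the summit and to 1.20 without replicate 2. The ratio of CACGCG, 0.403, became 0.635 without replicate 2 and 0.761 without replicate 3, and that of GTGGGAA, 1.82, became 1.15 without replicate 2. The windows compared also differed in GC content, and its part in the E-box shares was not tested. Over whole stretches, CACGTG was in 4.19% of pairs with an optimal summit (interval 2.82 to 5.96). It was in 3.38% with only a weaker one and 1.89% with none (interval 1.23 to 2.78). At most 200 bp apart the counts were 5 of 68 with an optimal summit and 2 of 577 with none. At 200 to 400 bp the shares, 2.37% and 1.31%, had overlapping intervals, and at 400 to 600 bp the order was reversed. CACGCG was in 4.62%, 6.45% and 5.15% of whole stretches.

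**Figure D5:**
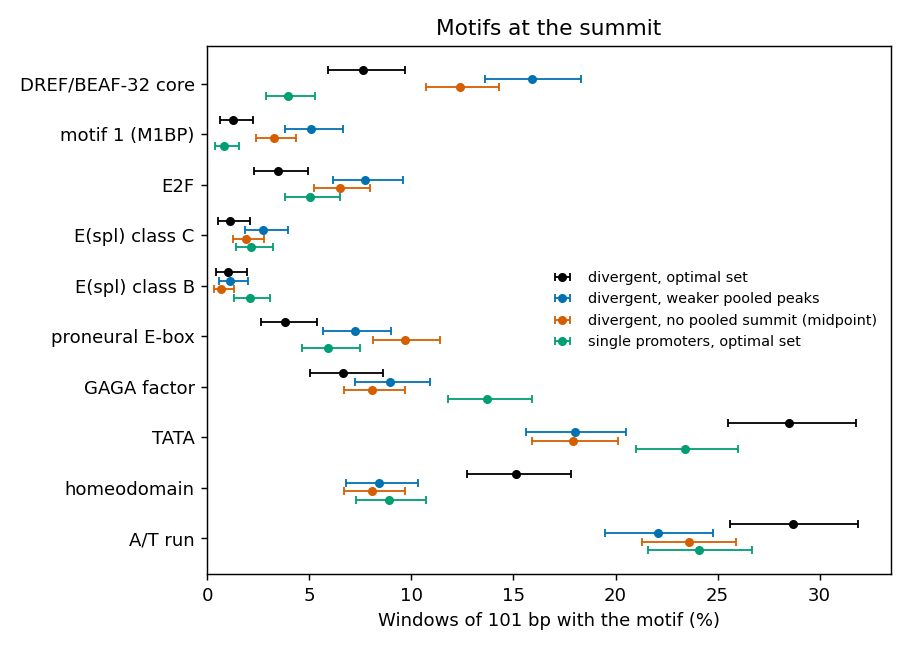
Share of windows within 50 bp of the summit holding each motif on either strand (horizontal axis, %), for optimal and weaker summits at divergent promoters, midpoints of divergent pairs with no pooled summit, and optimal summits at single promoters; points are shares and bars exact 95% intervals. The DREF/BEAF-32 core stands at 7.63% in optimal and 15.9% in weaker divergent windows, and the TATA letters at 28.5% and 18.0%.

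The strongest of the 16 was Ripalpha/RpL7, with both letters in 1 window and signal 1074 (670 in replicate 2 and 413 in replicate 3). Its window had 56.4% GC, far above the median. Ribosomal protein genes recurred among the 16, at RpL7, RpL41, RpS21, RpS19a and RpL29, 5 of 16 against 35 of the other 797 divergent peaks (4.39%). This grouping was picked out after the values were seen. The other members named with them were CG12321/MED17 at 516, dup/SRPK at 343, Wdr37/koko at 328 and heix/CG17328 at 327.

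Genes were then counted by function, from lists drawn up by symbol. A gene counted as bound when any divergent stretch of it held an optimal summit, which was so for 1618 of the 5052 genes in pairs (32.0%, interval 30.7 to 33.3). Of 56 cytoplasmic ribosomal protein genes in pairs, 38 were bound (67.9%, interval 54.0 to 79.7), 12 had only a weaker summit and 6 had none. The count was 45 with the peaks of replicate 2 and 36 with those of replicate 3. The median signal of their peaks was 477, against 325 over all bound genes. Among the lists with at least 20 genes in pairs, this share was the highest with either replicate's peaks.

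The strongest of them was the peak of RpL7 described above. RpS27/Nup37 had 1019 (673 in replicate 2 and 366 in replicate 3), and Nelf-E/RpL14 had 962 (564 and 389). Each was higher in rank in replicate 2, as were 33 of the 38 (86.8%, interval 71.9 to 95.6). RpL10Ab had only a weaker summit, and RpL3 and RpL35 had none. The gene of DREF itself, Dref, shared a peak of signal 624 with RpL13, in a stretch of 84 bp.

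Peaks of ribosomal protein genes differed in place and composition from the rest. Their summits lay a median of 70.5 bp from the start of the ribosomal protein gene (quartiles 39.0 and 103), against 148 bp over all bound genes of pairs (quartiles 106 and 224). The GC content of their windows was a median of 45.0% (quartiles 38.1 and 50.5), against 28.7% (quartiles 23.8 and 35.6). The quartile ranges do not overlap in either measure. The low GC of divergent summits was therefore not shared by this group.

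Of 58 mitochondrial ribosomal protein genes in pairs, 26 were bound (44.8%, interval 31.7 to 58.5), led by mRpS10, mRpL41 and mRpS23. Their windows had a median GC content of 27.7% and lay 146 bp from the gene's start, close to the values of all bound genes. The median signal of their peaks was 284, against 325 over all bound genes. mRpL1 had only a weaker summit, and mRpL15 and mRpL18 had none. Aminoacyl-tRNA synthetase genes, which charge tRNAs, were bound in 11 of 22 cases (interval 28.2% to 71.8%), led by IleRS (816), SerRS (687) and ThrRS (413). Respiratory chain genes were bound in 16 of 44 cases (36.4%, interval 22.4 to 52.2), led by ND-ASHI (650), ND-MWFE (600) and ND-51 (538) of complex I. The intervals of the last 2 lists include the 32.0% of all genes in pairs, and that of the mitochondrial ribosomal list starts just below it.

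Vps and ESCRT genes of membrane traffic were bound in 11 of 18 cases (61.1%, interval 35.7 to 82.7), led by Vps33B (1052), Vps36 (561) and Vps50 (487). With the peaks of either replicate alone the count was 9 of 18. Genes of insulator and chromatin proteins were bound in 8 of 14 cases (57.1%, interval 28.9 to 82.3), an interval that includes 32.0%. Among them were Chro, brm at 1721 and the insulator gene Cp190 at 1629 (957 in replicate 2 and 675 in replicate 3). E(z), which encodes the histone methyltransferase of Polycomb repression, had 1148 (667 and 487). The median signal of this list, 970, was the highest of the lists with more than 1 bound gene.

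Several large complexes were also counted. Bound were 8 of 26 proteasome genes (30.8%), 11 of 30 spliceosome genes (36.7%), 9 of 25 genes of general transcription factors and RNA polymerase II (36.0%) and 7 of 19 Mediator genes (36.8%). Translation initiation factors had 8 of 21 (38.1%), nuclear pore genes 5 of 18 (27.8%) and vacuolar ATPase genes 4 of 14 (28.6%). Replication and cell division cycle genes had 5 of 18 (27.8%), among them Mcm2 at 377, and mitochondrial import genes 3 of 5. In the cell cycle list 4 of 8 were bound, with Cdk1 at 418 and aurA at 335, while E2f2, fzy and stg had only weaker summits. All these intervals include 32.0%. The smaller lists shifted most between replicates: the proteasome count was 4 with the peaks of replicate 3, and the vacuolar ATPase count was 8 with those of replicate 2 and 2 with those of replicate 3.

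Families often expressed in few tissues, which was not measured here, held few bound genes or none. None of 37 chemosensory genes in pairs was bound, and 3 had a weaker summit. They were 26 receptor genes of the Or, Gr and Ir families and 11 genes of odorant-binding proteins (Obp). With the peaks of replicate 2 the count stayed at 0, and with those of replicate 3 it was 2. None of 13 genes of the cytochrome P450 list was bound, nor any of 11 cuticle protein genes. Both lists also had 0 with the peaks of either replicate. Tetraspanins had 2 of 11 (4 with the peaks of replicate 2), and both stood at the same summit, Tsp42Eq/Tsp42Er with 304. Some genes of these families are paired with each other and share a stretch. With such genes counted once, the chemosensory list had 0 of 30 (interval up to 11.6%), the P450 list 0 of 10 (up to 30.8%) and the cuticle list 0 of 7 (up to 41.0%). The chemosensory interval ends well below the 32.0% of all genes in pairs, the P450 interval ends near it, and the cuticle interval includes it. Tetraspanins, counted in the same way, had 1 of 9 (interval 0.281% to 48.2%), which also includes 32.0%.

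Of the E(spl) complex itself, 1 gene is in a divergent pair. E(spl)mdelta-HLH, a relative of the tagged protein, had a peak with CG43116 of signal 1196, with 699 in replicate 2 and 620 in replicate 3 (ranks 188 and 198). Its summit was 259 bp from CG43116 and 366 bp from E(spl)mdelta-HLH. Of 9 listed Notch pathway genes in pairs, 3 were bound. These were aph-1, a subunit of gamma-secretase, at 724 (410 and 287), dx, the gene of Deltex, at 259 beside RpL7A (172 and 107), and neur, the ubiquitin ligase gene that acts on Delta, at 223 beside hyx (103 and 118). Su(H) and CtBP had only a weaker summit and Psn had none. The count of 3 of 9 (33.3%, interval 7.49 to 70.1) does not stand apart from all genes in pairs. Of the neural genes listed, brat alone was in a pair, with a peak of 236 at Polr1D/brat (127 in replicate 2 and 122 in replicate 3).

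The arms differed in occupancy. On the X, 73 of 403 divergent pairs held an optimal summit (18.1%, interval 14.5 to 22.2). The shares were 25.5% on 2L, 23.4% on 2R, 29.7% on 3L and 30.5% on 3R (interval 27.0 to 34.1), and none of 11 pairs on arm 4 had a summit. The intervals of the X and of 3L (25.8 to 33.9) and 3R do not overlap. On the X the divergent class also made up a smaller share of the optimal summits, 9.78% against 13.1% to 15.6% on the 4 long autosomal arms. Embryos of both sexes were pooled, so males contributed 1 copy of the X, and its part in the lower share was not tested.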

How the data were processed

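ChIP-seq of 1 group of 2 biological replicates was available as 4 deposited peak lists on dm6, per the file headers and labels: the optimal set, a pooled list and a list for each replicate. The signal of each peak is the authors' enrichment value and was used as deposited. The −log10 q-value of each peak, also deposited by the authors, described the lists and entered no result. Which aligner and peak caller made the lists, with which versions and reproducibility threshold, is not stated in the sources used here. Depth per replicate is unknown, so precision is set by the number of peaks, and the control file was not analysed here.

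Summits were placed on the RefSeq sequence of Release 6 with the Ensembl 115 annotation, without transposable elements, which holds 13945 protein-coding genes on the 6 arms. A summit within several stretches was given to the shortest. A pair was scored on its closest starts. Motifs were searched on both strands, 20 in all, in windows within 50 bp of the summit. Gene lists, 23 in all, follow symbol patterns or names, so a few members with like symbols are included. The listed symbols Dl, nct and z4 matched no gene of the annotation, so the lists lack them. Named genes are the 20 strongest and 5 weakest divergent peaks, the 5 strongest weaker ones, up to 3 bound and 3 unbound genes of a list, the 3 shortest and 3 longest stretches, and the 5 strongest peaks lacking a replicate. A gene that this rule names is not reported here, and the next of its list stands in its place. The members and lists were chosen with earlier results of these data known. No significance test was run: the files hold 1 group, so values are counts, shares with exact intervals, and medians. The code was tested on simulated gene pairs. Python 3.11.15, pandas 2.3.3, numpy 2.4.6, scipy 1.17.1 and matplotlib 3.10.9 were used.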

Additional observations from a re-analysis of the deposited data

How the results depend on the processing

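No paired analysis was possible because the samples form 1 group. Leaving out a replicate put the strongest 6152 peaks of the remaining replicate in place of the optimal set. Divergent summits were 13.2% of the set and moved to 10.4% with a limit of 500 bp, 16.6% with 2000 bp, 9.83% with the outermost start of each gene, 14.4% with any annotated gene, 14.3% with 100 bp outside the starts, 15.1% in the stronger 50% of peaks (463 members in place of 813) and 12.1% to 14.8% without a replicate. Pairs with a summit moved from 25.9% to 28.1% (500 bp), 22.4% (any gene), 31.5% (100 bp outside), 15.0% (stronger 50%), 30.1% (within 250 bp of the midpoint, added after seeing the data) and 23.5% to 29.2% without a replicate. Replicate 2 supported 97.3% of members with summits within 100 bp. Replicate 3 supported 96.1% by that measure and 96.9% with an overlap of 50%. The gene-level ratio between pairs and other genes, 3.18, ran from 2.90 to 4.04. Of 118 motif ratios under alternatives, 97 stayed within 1.5 times the main value and 11 crossed 1. Of 88 gene list counts, 55 stayed within 1.5 times. Depth is unknown, and counts under about 20 limit the E-box and small-list shares.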
